A study of Caenorhabditis elegans with 3 samples.

Results

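The transthyretin-like genes of Caenorhabditis elegans, written ttr with a number, were measured in adult hermaphrodites against a mixed reference RNA. The members were chosen by name, as genes whose array probe carried a single symbol of the form ttr and a number; the family itself was picked from among many families with the values of this same comparison known, so its values are given as a description with no test of the family. All 46 ttr genes with a named probe had a value on every array, 46 of the 15092 named genes tested. Each was read by 1 probe. Another 13 ttr genes of the RefSeq gene table (assembly WBcel235), among them ttr-33, ttr-34 and ttr-59, were not analysed here. The table lists ttr-4 as a pseudogene.

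Each of the 3 arrays held 2 RNA samples: an adult prep, under the submitters' unexplained code TP09, and a reference named only as wild-type and mixed. The labels give no genotype, age or culture for the adults, so strain and stage cannot be told apart. Nor can the preps be called separate cultures. The p-values test each mean ratio against 0, relative to the spread between preps as moderated over all genes. That spread may be technical. Values are log2 ratios centred on each array's median, so that -1 stands for a level 2-fold lower than in the reference relative to the median probe. Adult over reference is the likely direction, not a stated one, since channel 2 is labelled with the adult RNA and the label's comparison opens with it; with the opposite direction every sign below turns. In that direction, 14 of 15 measured markers of the female germline and oocytes were higher, beside 20.9% of all genes tested. Their medians were 1.91, 1.60 and 1.86 on replicates 1, 2 and 3. The adult cuticle collagen gene col-19 stood at 2.12 ± 0.15 (SD, n = 3), though 8 of 15 hypodermis and cuticle markers were lower. The yolk protein gene vit-2 was higher at 1.03 ± 0.63, while vit-5 (-0.06 ± 0.39) and vit-6 (0.06 ± 0.24) were not called. Values were present for 19807 to 19899 of the 20000 probes per array. The number of arrays limits the precision, and levels of different genes cannot be compared, since each ratio is against the reference only.

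Transthyretin-like proteins form one of the large protein families of nematodes. They resemble vertebrate transthyretin, a carrier of thyroid hormone and of retinol-binding protein, but most are small secreted proteins, and parasitic nematodes release members of the family in quantity. The function of most members is unknown. The best studied is TTR-52, a secreted protein that binds phosphatidylserine on dying cells and the engulfment receptor CED-1, and so bridges a corpse to the cell that engulfs it. A separate family, the transthyretin-related proteins, consists of enzymes of urate breakdown.

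Most ttr genes had lower ratios in adults than in the mixed reference, and the lowest, ttr-26 and ttr-27, were 10.4-fold and 9.04-fold lower. At an adjusted p under 0.05, 30 of the 46 genes were lower and 1 higher, while 15 missed the threshold (limma across all genes, Benjamini-Hochberg adjustment). Over all genes tested, 44.4% passed, 20.9% on the higher and 23.5% on the lower side. The median of the ttr genes was -0.80, beside -0.02 for all genes, and their quartiles lay at -1.22 and -0.13, beside -0.39 and 0.32. On replicates 1, 2 and 3 the family's medians were -0.90, -0.70 and -0.86, and 6, 7 and 8 members had a ratio above 0. All 31 members past the threshold had 1 sign on all 3 arrays, which the threshold itself favours, so this is no separate evidence.

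**Figure D1:**
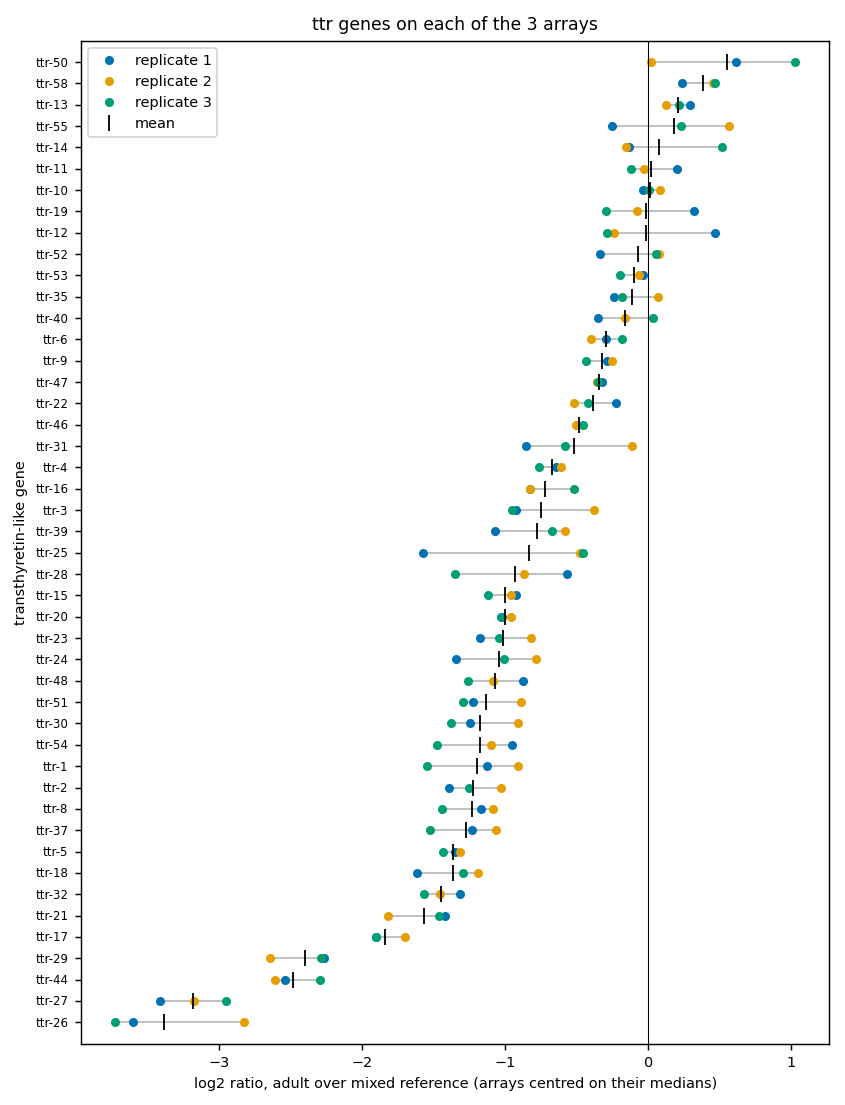
Log2 ratio of adult over mixed reference (horizontal axis) for each of the 46 ttr genes (vertical axis, ordered by mean); points are the 3 arrays, black ticks their means and grey lines their range. The means run from -3.38 for ttr-26 to 0.55 for ttr-50, and the 4 lowest genes stand below -2 on every array.

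The family was divided into size classes. A mean of -2 or lower was found for 4 genes (8.7% of the family, beside 2.01% of all genes), a mean between -2 and -1 for 17 (37.0%, beside 6.99%), a mean between -1 and 0 for 18 (39.1%, beside 42.34%), and a mean above 0 for 7 (15.2%, beside 48.66%). The plot of cumulative shares shows the family's curve to the left of that of all genes, with no ttr gene at 1 or above.

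**Figure D2:**
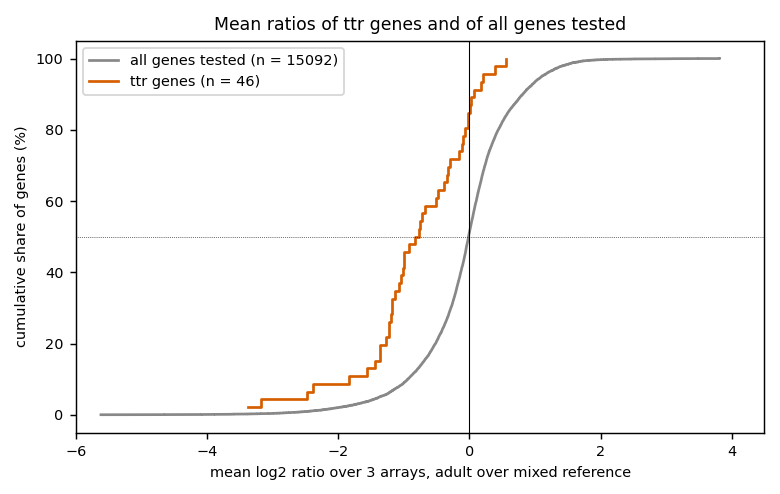
Cumulative share of genes (vertical axis, percent) by mean log2 ratio over the 3 arrays (horizontal axis) for the 46 ttr genes and all 15092 genes tested; the dotted line marks 50%. The ttr curve crosses it at -0.80 and that of all genes at -0.02.

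The 4 lowest genes stood apart from the rest of the family by a gap from -2.39 to -1.84. The lowest mean was that of ttr-26 (Y51A2D.11), with -3.60, -2.82 and -3.72 on replicates 1, 2 and 3 and a mean of -3.38 ± 0.49 (SD, n = 3). Its neighbour in rank, ttr-27 (R90.2), had -3.41, -3.18 and -2.95, a mean of -3.18 ± 0.23. The values of these 2 genes overlapped, so their order is not set by these arrays. For ttr-44 (C56A3.2) the ratios were -2.54, -2.60 and -2.29, a mean of -2.48 ± 0.17 or 5.57-fold lower. The gene ttr-29 (R90.4) had -2.26, -2.64 and -2.28, a mean of -2.39 ± 0.21 or 5.26-fold lower. These last 2 genes also overlapped each other, and all 12 values of the 4 genes lay below every value of any other member. The functions of the 4 gene products are not known with certainty.

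Next came 17 genes with means between -2 and -1, and each of their values on each array was -0.79 or lower. At the low end, ttr-17 (Y5F2A.2) had -1.90, -1.70 and -1.90, a mean of -1.84 ± 0.12 or 3.57-fold lower. It was followed by ttr-21 (F09F3.6), with -1.42, -1.82 and -1.46 and a mean of -1.56 ± 0.22. Both stood at -1.42 or lower on every array, and their ranges overlapped. The ratios of ttr-32 (R13A5.3) were -1.32, -1.45 and -1.57, a mean of -1.45 ± 0.13. Those of ttr-18 (B0334.1) were -1.61, -1.19 and -1.29, a mean of -1.37 ± 0.22. Those of ttr-5 (C40H1.5) were -1.35, -1.31 and -1.44, a mean of -1.37 ± 0.06. The last 3 genes could not be ordered, and ttr-5 varied least among them.

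The other 12 of these genes formed a dense group. In it, ttr-37 (F21E9.3) had -1.23, -1.07 and -1.53, a mean of -1.28 ± 0.23. For ttr-8 (R13A5.6) the ratios were -1.17, -1.08 and -1.44, a mean of -1.23 ± 0.19. For ttr-2 (K03H1.4) they were -1.39, -1.03 and -1.25, a mean of -1.22 ± 0.18. These differed from one another by less than the spread between arrays. Ratios of -1.13, -0.91 and -1.54 were found for ttr-1 (K03H1.6), a mean of -1.19 ± 0.32. Ratios of -0.96, -1.10 and -1.48 were found for ttr-54 (T14G10.4), a mean of -1.18 ± 0.27. Ratios of -1.24, -0.91 and -1.38 were found for ttr-30 (T08A9.2), a mean of -1.17 ± 0.24. For these 3 genes replicate 3 was the lowest array. The gene ttr-51 (JC8.8) had -1.23, -0.89 and -1.29, a mean of -1.14 ± 0.22. With -0.87, -1.08 and -1.26, ttr-48 (ZC64.2) had a mean of -1.07 ± 0.19. With -1.34, -0.79 and -1.01, ttr-24 (Y51A2D.9) had a mean of -1.05 ± 0.28. Again the ranges overlapped throughout. On replicates 1, 2 and 3, ttr-23 (T21C9.8) had -1.18, -0.82 and -1.04, a mean of -1.01 ± 0.18. The gene ttr-20 (F36A4.8) had -1.03, -0.96 and -1.02 (SD 0.04), and ttr-15 (T07C4.5) had -0.92, -0.96 and -1.12 (SD 0.11). Both were 2.00-fold lower in adults, and ttr-20 varied least of the group.

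A further 9 genes were lower with means from -0.93 to -0.39. They were ttr-28 (-0.93 ± 0.40), ttr-25 (-0.83 ± 0.64), ttr-39 (-0.78 ± 0.26), ttr-3 (-0.75 ± 0.32), ttr-16 (-0.72 ± 0.18), the listed pseudogene ttr-4 (-0.68 ± 0.08), ttr-31 (-0.52 ± 0.38), ttr-46 (-0.49 ± 0.02) and ttr-22 (-0.39 ± 0.15). In ttr-25 the spread came from replicate 1, at -1.58, with the other arrays at -0.47 and -0.45. The calls of 3 of these genes were lost when 1 array was left out, with the means little changed for ttr-46: ttr-22 did not pass without replicate 2 (-0.32) or 3 (-0.37), nor did ttr-46 without replicate 2 (-0.48) or 3 (-0.50), and ttr-31 did not pass without replicate 1 (-0.35) or 3 (-0.48).

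The single higher gene was ttr-58 (F56F4.1), at 0.23, 0.46 and 0.46, a mean of 0.38 ± 0.13 or 1.30-fold. Its call did not hold without replicate 2 (0.35) or replicate 3 (0.34), and its mean was 0.17 when arrays were centred by 32 runs of consecutive rows, which also ended the call. The highest mean, that of ttr-50 (F58B3.9), did not pass. Its ratios were 0.61, 0.02 and 1.03, a mean of 0.55 ± 0.51, so 1 array stood at the reference level and another 2-fold above it. Without replicate 2, ttr-50 passed at 0.82.

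The 15 genes that did not pass lay between -0.34 and 0.55, 9 of them below 0, and 6 had 1 sign on all arrays. Their SDs reached 0.51 with a median of 0.17, beside 0.21 for the 31 called genes. Beside ttr-50, those with means above 0 were ttr-13 (0.21 ± 0.08), ttr-55 (0.18 ± 0.41), ttr-14 (0.08 ± 0.38), ttr-11 (0.02 ± 0.17) and ttr-10 (0.02 ± 0.06). The values of ttr-10 stayed closest to the reference, at -0.04, 0.08 and 0.00. Those with means below 0 were ttr-19 (-0.02 ± 0.31), ttr-12 (-0.02 ± 0.42), ttr-52 (-0.07 ± 0.23), ttr-53 (-0.10 ± 0.08), ttr-35 (-0.12 ± 0.16), ttr-40 (-0.16 ± 0.19), ttr-6 (-0.29 ± 0.11), ttr-9 (-0.32 ± 0.10) and ttr-47 (-0.34 ± 0.02). Without replicate 1, ttr-47 passed at -0.36 and ttr-55 at 0.40.

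The arrays ranked the members broadly alike, though genes with close means could not be ordered. Spearman's rho was 0.87 between replicates 1 and 2, 0.87 between 1 and 3, and 0.94 between 2 and 3. Over the 46 genes, which share arrays and so do not count as replicates, Pearson's r came to 0.91 between replicates 1 and 2, 0.92 between 1 and 3, and 0.93 between 2 and 3. With the 4 lowest genes left out, r was 0.82, 0.85 and 0.90 over 42 genes. Over all probes it was 0.80, 0.84 and 0.92. The median SD of a member was 0.19, beside 0.21 for all genes tested. Replicate 1 deviated from the other arrays by table position, when 32 equal runs of rows were pooled by their place in each 4. The deviations given are medians over members or probes, and single runs were not compared. In the first run of each 4, replicate 1 stood 0.22 above the mean of the other arrays for 11 members (0.24 for all probes). In the fourth its deviation was -0.29 for 9 members (-0.24 for all probes). In the second it was -0.06 for 14 members (0.06 for all probes) and in the third -0.29 for 12 (-0.15). With each run centred on its own median, 28 members were lower and 2 higher (ttr-50 at 0.66 and ttr-13 at 0.40), and the family's median was -0.78. In that setting ttr-22 (-0.22) and ttr-31 (-0.33) no longer passed, and ttr-22 also missed the threshold with values as deposited (-0.36).

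Many ttr genes lie next to one another, and neighbours did not all have like ratios. In the gene order of the WBcel235 table, 9 pairs of measured members were adjacent coding genes, of which 5 differed by over 1 on the log2 scale and 4 by under 0.5. The run ttr-27, ttr-28, ttr-29 had means of -3.18, -0.93 and -2.39. Here ttr-28 lay above ttr-27 by 2.85, 2.31 and 1.60 on replicates 1, 2 and 3, a mean difference of 2.25 ± 0.63. The third gene, ttr-29, was again lower than ttr-28 on every array, with a mean difference of -1.47 ± 0.46. The run ttr-24, ttr-25, ttr-26 had means of -1.05, -0.83 and -3.38. Its last member was among the 4 lowest genes, and the step from ttr-25 to ttr-26 was -2.02, -2.35 and -3.27, a mean of -2.55 ± 0.65. Within ttr-24 and ttr-25 the difference changed sign between arrays.

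The other pairs ranged from over 1 apart to near equal. The gene ttr-17 lay below ttr-16, with a difference of -1.11 ± 0.26, and ttr-53 lay above ttr-54 by 1.08 ± 0.19, each with 1 sign on all arrays. Differences were smaller in the run ttr-3, ttr-2, ttr-1, at -0.48 ± 0.18 for the first step and 0.03 ± 0.29 for the second, which changed sign between arrays. The pair ttr-8 and ttr-32 differed by -0.21 ± 0.14. The plot of adjacent genes shows these 6 runs. Probe sequences were not used here, so whether close copies share signal on the array was not tested.

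**Figure D3:**
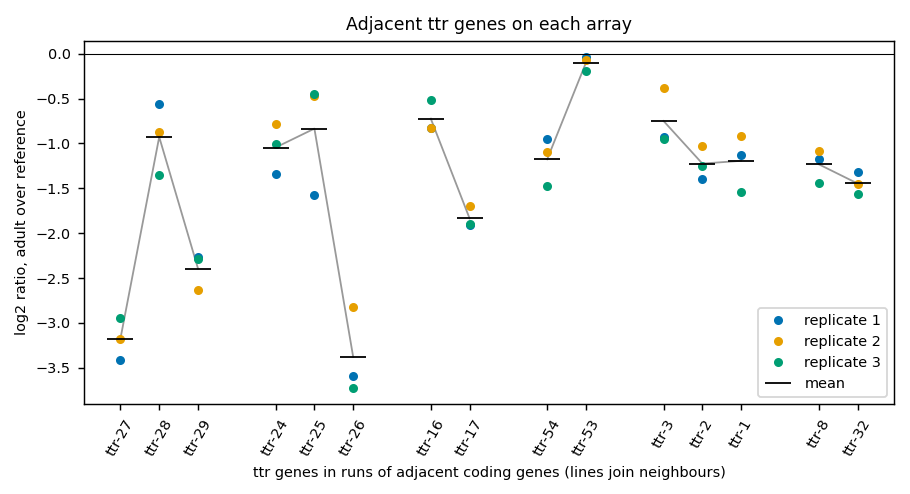
Log2 ratio of adult over mixed reference (vertical axis) for ttr genes in 6 runs of adjacent coding genes (horizontal axis); points are the 3 arrays, black bars their means, and grey lines join neighbours. In the first 2 runs neighbours stand up to 2.55 apart, while the last 2 runs stay within 0.5 a step.

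Other genes beside ttr genes were counted as well. Of 56 coding genes that flank a member, are not ttr genes and had a value, 11 passed on the higher and 16 on the lower side, beside 20.9% and 23.5% of all genes; the median of the 56 was -0.05. The RNA polymerase II subunit gene ama-1, next to ttr-20, was higher at 1.66 ± 0.52 (adjusted p = 0.000516, limma), and the cuticle collagen gene col-34 on the other side was lower at -1.68 ± 0.22 (adjusted p = 0.000119, limma). The basement membrane gene nid-1, next to ttr-29, was higher at 1.44 ± 0.27 (adjusted p = 0.000249, limma). The flanking genes named here were chosen after their values were seen.

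The gene ttr-52 (F11F1.7), the bridge to dying cells, stood near the reference level. It had -0.34, 0.08 and 0.05 on replicates 1, 2 and 3, a mean of -0.07 ± 0.23, and did not pass. Of the genes that act with it, the receptor gene ced-1 was higher at 0.45 ± 0.11 (adjusted p = 0.0208, limma), as was ced-7, a transporter gene required for engulfment, at 0.71 ± 0.03 (adjusted p = 0.00230, limma). The adaptor gene ced-6 was higher at 0.51 ± 0.17 (adjusted p = 0.0151, limma) and the dynamin gene dyn-1 at 0.36 ± 0.06 (adjusted p = 0.0424, limma). Without replicate 3 ced-6 no longer passed (adjusted p = 0.0566, limma), nor did ced-1 and dyn-1 without replicate 2 (0.112 and 0.128) or 3 (0.153 and 0.275). The secreted lipid-binding protein gene nrf-5, whose product also handles phosphatidylserine, had -0.32, -1.18 and -0.13, a mean of -0.54 ± 0.56 that did not pass (adjusted p = 0.0702, limma). Without replicate 3 it passed at -0.75 (adjusted p = 0.0226, limma), and without replicate 2 it stood at -0.22 (adjusted p = 0.402, limma).

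Over the list of 24 engulfment genes, 20 were measured, with 9 higher, 3 lower and 8 short of the threshold and a median of 0.35, beside 20.9% higher and 23.5% lower of all genes. Leaving out 1 replicate gave 7 to 9 higher and 1 to 3 lower genes, with only 1 lower gene without replicate 2. The clathrin heavy chain gene chc-1 had the highest mean, at 1.17 ± 0.33, and the small GTPase gene rab-14, needed for phagosome maturation, the lowest, at -1.34 ± 0.10. Of 5 measured genes of the cell death core, ced-4, which encodes the caspase activator, was higher at 0.71 ± 0.09 and the transcription factor gene ces-2 at 0.58 ± 0.18, while ced-3, ced-9 and ces-1 did not pass. Without replicate 3 ces-2 no longer passed (adjusted p = 0.0999, limma), and ces-1 passed without replicate 1 (0.42, adjusted p = 0.0274, limma). The plot of engulfment genes places ttr-52 below the list's median.

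**Figure D4:**
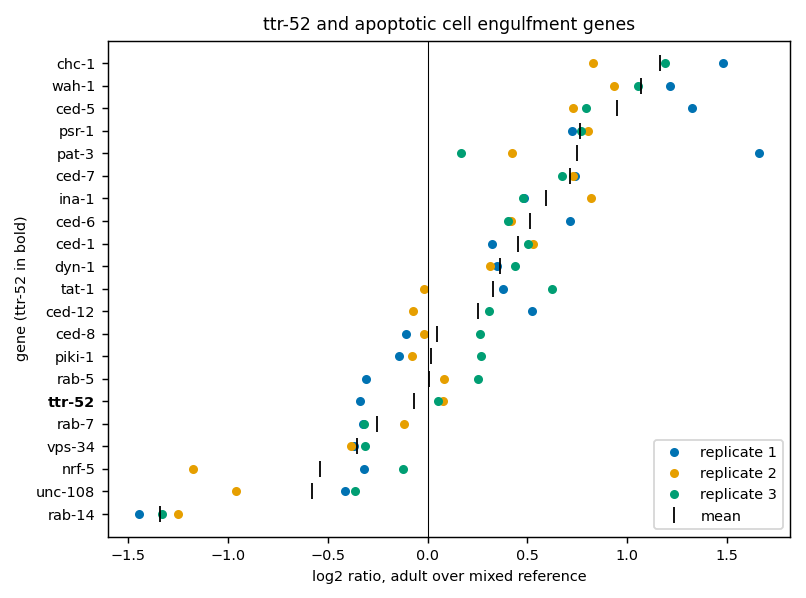
Log2 ratio of adult over mixed reference (horizontal axis) for ttr-52 and the 20 measured engulfment genes (vertical axis, ordered by mean); points are the 3 arrays and black ticks their means. The gene ttr-52 stands at -0.07, ced-1 at 0.45 and ced-7 at 0.71.

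Both transthyretin-related genes of the urate pathway stood within 0.5 of the reference on average. R09H10.3 was lower at -0.41 ± 0.12 (adjusted p = 0.0316, limma), a call that did not hold without replicate 2 (-0.40) or 3 (-0.35). ZK697.8 did not pass, with 0.82, -0.12 and -0.12 and a mean of 0.20 ± 0.54.

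Marker genes of some tissues had low ratios beside the ttr genes. For comparison with the counts that follow, 20.9% of all genes tested passed as higher and 23.5% as lower. Among 15 hypodermis and cuticle markers 8 passed as lower and 2 as higher; the median was -0.77 and the range ran from -3.63 (the collagen gene rol-6) to 2.12 (col-19). Their medians on replicates 1, 2 and 3 were -0.61, -0.72 and -0.98. Among 13 measured neuron markers 8 passed as lower, 0 as higher, and 5 did not pass. The median of the 13 was -0.78, and ida-1, a gene of dense core vesicles, was lowest at -2.83. The genes that did not pass ran from -0.36 (unc-119) to 0.33 (unc-104), and unc-104 passed as higher without replicate 1 (0.39). Among 15 sperm markers, with a median of -0.54, 8 passed as lower, 0 as higher, and 7 did not pass. The lower ones were msp genes, gsp-3 and gsp-4. The measured spe genes and fer-1 did not pass, with means from -0.61 (spe-11) to 0.35 (spe-15), nor did msp-38 and msp-142. Intestine markers had a median of 0.38 (6 higher, 4 lower and 4 not passing of 14), pharynx markers one of -0.19 (2, 4 and 4 of 10), and body wall muscle markers one of 0.01, with 8 of 9 not passing. The intestine medians were 0.06, 0.49 and 0.42 on replicates 1, 2 and 3, and the 4 lower intestine genes became 2 without replicate 2 or 3. The 2 higher pharynx genes became 1 without replicate 2, and neither of them passed without replicate 3. Without replicate 1, abu-14 no longer passed, while phat-1 did (0.51). The part of these tissue markers in the ttr ratios was not tested, and in whole-worm RNA fewer cells of a type and less RNA per cell cannot be told apart. The make-up of the reference, which also sets each ratio, is not stated in the labels.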

How the data were processed

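The 3 arrays analysed were 2-colour, with 1 adult prep each against the common reference; the preps form 1 group of 3 replicates numbered as in the labels. The deposited values are log2 ratios, 1 per probe and array. The log2 scale was worked out from the values (100% of the 58013 deposited values within 2 of 0 are the log2 of a ratio with 3 decimals, against 0.974% read as natural logs). Scanner, dyes, background treatment and the authors' normalization were not given in the sources used. Names of probes came from GEO's platform annotation: 15655 carried 1 symbol, 198 several and 4147 none; all 46 ttr symbols matched the RefSeq table. Sequences of probes, promoters and proteins were not used here.

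Arrays were centred on their medians, probes of a gene averaged, and genes with a value on all arrays tested against 0 with limma 3.58.1 in R 4.3.3 (lmFit, eBayes; 2 residual and 5.3 prior degrees of freedom) with Benjamini-Hochberg adjustment over all genes and a threshold of 0.05. The test leaves out the reference's own spread. Members with an absolute mean of at least 1 are given on every array. From the engulfment and cell death lists the named genes include those with the largest ratios and the partners of ttr-52. Marker genes are named as examples, and some with large ratios are left out. The members, gene lists and alternatives were chosen with earlier results of these data known. Alternatives were uncentred values, scale and quantile normalization, centring by 32 runs of rows, a value on at least 2 arrays, single probes, array weights, a robust prior, a test against a 1.5-fold change (treat in limma), and leaving out each replicate.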

Additional observations from a re-analysis of the deposited data

How the results depend on the processing

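Under every alternative the number of lower ttr genes was within 1.5 times the 30 of the report, and no call changed direction. With treat, where only differences past 1.5-fold count, 20 ttr genes passed, all of them lower (0 higher, and 0 at an unadjusted p under 0.05, against 1 and 2 with limma's test against 0), and 2076 of all genes. The 1 higher member became 2 with values as deposited, with centring by 32 runs and with array weights, and leaving out 1 replicate gave 0 to 2 by limma, with 0 at an unadjusted p under 0.05 without replicate 3. Leaving out 1 replicate also gave family medians from -0.95 (without replicate 2) to -0.68 (without replicate 1), 27 to 32 ttr genes past the threshold and 4954 to 7097 of all genes. Array weights gave replicates 1, 2 and 3 weights of 0.37, 1.03 and 2.6. With these weights 34 ttr genes passed, and 8309 of all genes. With 3 arrays and no spot intensities, no member could be set against background.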

Other observations

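Replicate 1 differed from both other arrays by over 0.5 in the same direction for 2 members, ttr-25 (-1.58 against -0.47 and -0.45) and ttr-12 (0.47 against -0.24 and -0.29). The same array held the high values of the engulfment gene pat-3 (1.66 against 0.42 and 0.16) and of ZK697.8 (0.82 against -0.12 and -0.12).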
